A study of Mus musculus with 9 samples.

Results

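The genes described here were 10 core members of the Notch pathway: the receptors Notch1, Notch2 and Notch3, the ligands Jag1, Jag2 and Dll1, the DNA-binding factor Rbpj, and the target genes Hes1, Hey1 and Heyl. They were chosen by symbol with earlier results of these data known. All 10 were found among the 36410 gene symbols of the deposited count table. Ribosome-protected fragments were sequenced from 3 immortalized striatal cell lines of C57/BL6 mouse origin, with 3 libraries per line from separate rounds of culture. The control line (STHdhQ7/Q7) carries a knock-in wild-type Htt exon 1 whose repeat codes for 7 glutamines. The HD-het line (STHdhQ7/Q111) has 1 allele with 111 glutamines beside 1 with 7, and both alleles of the HD-homo line (STHdhQ111/Q111) code for 111. All 3 lines carry knock-in alleles and were treated for 10 min with cycloheximide, which stalls elongating ribosomes, before fragments of 26 to 32 nt were taken from the 80S monosomes. Each genotype was 1 cell line, so a difference between genotypes and a difference between lines cannot be told apart.

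Notch signaling passes between touching cells. A Jagged or Delta-like ligand on the surface of one cell binds a Notch receptor on its neighbor, ADAM proteases and then gamma-secretase cut the receptor, and the released intracellular domain enters the nucleus. There it joins RBPJ and a Mastermind coactivator and switches on genes of the HES and HEY families, which code for transcriptional repressors. In the embryonic striatum the pathway is known for holding progenitors in a dividing state, and in blood vessels it is known for the maturation of mural cells.

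Library totals ran from 22504543 to 41888701 counts, and 3 counts, the most that a count of 0 is taken to allow for, stood for 0.0714 to 0.142 CPM (counts scaled to a TMM-adjusted library total of 1e+06). Fragments amplified by PCR are not separate molecules, so this floor accounts for counting error alone. Htt, the altered gene, lay at 28.1 to 30.0 CPM in control libraries, at 19.4 to 20.9 CPM in those of HD-het and at 5.79 to 7.69 CPM in those of HD-homo. Of 11 markers of striatal projection neurons, 3 exceeded a mean of 1 CPM in each line, and the dopamine receptor genes Drd1 and Drd2 had no count in any library. Of 10 markers of striatal progenitors, 6 exceeded 1 CPM in each line, while Gsx2 had no count in any library. Of 9 markers of mural and mesenchymal cells, 8 exceeded 1 CPM in each line, with Rgs5 at or near 0. Their levels summed to between 6754 and 9428 CPM in control libraries, 28055 and 29702 in HD-het and 5426 and 6934 in HD-homo.

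Of the 10 genes, 8 had enough counts to be tested, with only Dll1 and Heyl left out. HD-het stood apart from the other lines in 7 of the 8. The receptors Notch1, Notch2 and Notch3, the ligands Jag1 and Jag2 and the target Hey1 were higher in HD-het than in control, and Rbpj was lower. Against HD-het, HD-homo showed each of these 7 in the opposite direction. The edgeR test for any difference among the 3 lines called 7 of the 8, all but Hes1, against 78.4% of the 12678 genes tested. Footprint counts hold no mRNA level, so more mRNA and more ribosomes per mRNA cannot be told apart, nor can more cells making a transcript and more footprints per cell.

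**Figure D1:**
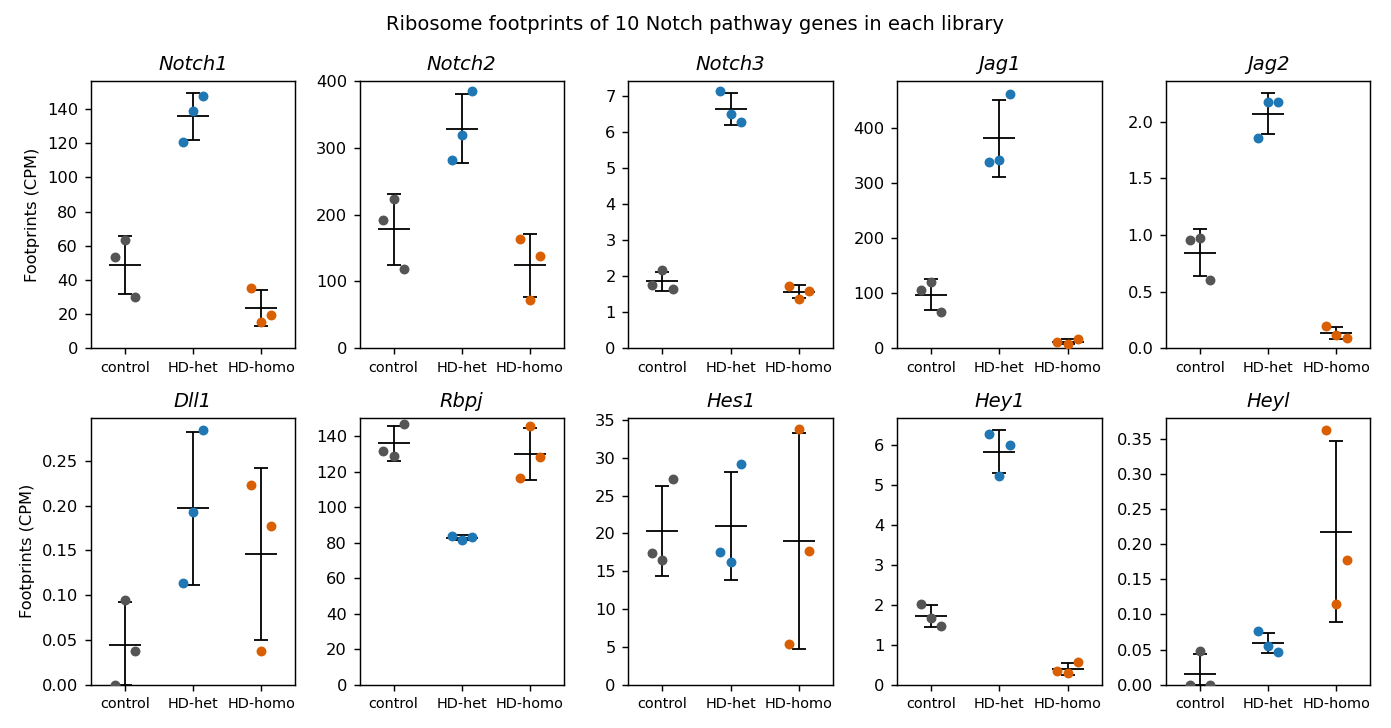
Footprint level of each of the 10 genes (CPM, linear axis from 0) in the 3 libraries of control, HD-het and HD-homo cells. Points are libraries, the long bar is the mean of 3 libraries and the capped bar its SD, ended at 0 where it would pass below. Jag1 sits between 338 and 462 CPM in HD-het libraries and between 7.76 and 16.0 CPM in HD-homo libraries, Rbpj is lowest in HD-het, and the 3 lines overlap for Hes1.

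The promoters of members with a RefSeq window were read for the letters TGGGAA, the core that RBPJ binds. Both strands of the 250 bases before a RefSeq start were searched. RefSeq windows (GRCm38.p6) were at hand for Notch1, Notch2, Notch3, Jag1, Jag2, Dll1 and Rbpj. None was at hand for the targets Hes1, Hey1 and Heyl, so their promoters were not searched. Shown are the windows of Notch1 (chr2:26503823-26504072, minus strand), the receptor with the largest gap between the HD lines, of Jag1 (chr2:137116521-137116770, minus strand), the ligand with the largest gap, and of Rbpj (chr5:53590096-53590345, plus strand), the one gene that moved the other way. Each is printed 5′ to 3′ with the core, where it occurs, in capitals.
Notch1: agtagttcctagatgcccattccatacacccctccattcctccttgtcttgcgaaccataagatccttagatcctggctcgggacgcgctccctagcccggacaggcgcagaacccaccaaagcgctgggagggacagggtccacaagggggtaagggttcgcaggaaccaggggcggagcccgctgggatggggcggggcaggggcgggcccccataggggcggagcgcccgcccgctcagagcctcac
Jag1: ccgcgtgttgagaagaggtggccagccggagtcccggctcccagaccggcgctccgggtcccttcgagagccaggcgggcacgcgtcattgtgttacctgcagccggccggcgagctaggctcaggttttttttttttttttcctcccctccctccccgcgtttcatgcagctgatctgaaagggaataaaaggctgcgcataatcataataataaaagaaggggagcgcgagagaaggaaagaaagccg
Rbpj: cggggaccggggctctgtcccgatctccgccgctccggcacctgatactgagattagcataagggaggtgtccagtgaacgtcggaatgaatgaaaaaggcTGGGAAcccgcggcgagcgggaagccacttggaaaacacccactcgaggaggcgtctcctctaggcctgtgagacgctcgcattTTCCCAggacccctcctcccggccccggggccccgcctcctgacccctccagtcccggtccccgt
The core was found 2 times in this Rbpj window. Its start lies inside the annotated gene, as do the starts behind the Jag2 window, 1 of the 2 Dll1 windows and, by a few bases, the Notch3 window. By its first letter as printed it lay 149 bases before that start on the plus strand and 65 bases before it on the minus strand, and a second, overlapping Rbpj window held the latter. It was in none of the windows of the other 6 genes. Of 32851 RefSeq windows of this length, 21.6% held the core and 5.42% its longer form GTGGGAA, which no member's window held. The E-box CACGTG, letters that HEY proteins bind, was in 6.02% of all windows and in none of these. The N-box CACNAG, letters bound by HES proteins, was in 36.7% of all windows, 1 time each in Notch1 and Notch2 and 2 times in Notch3. The 4 motifs were searched separately and on both strands. A match is a run of letters and was not tested for binding.

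Jag1 showed the widest range of the ligands. It codes for a membrane-bound Notch ligand that blood vessels, heart and bile ducts need in development, and its gene lies at chr2:137081451-137116520 (GRCm38.p6, minus strand). Control libraries held 106, 120 and 64.9 CPM, HD-het libraries 338, 341 and 462 CPM, and HD-homo libraries 11.0, 7.76 and 16.0 CPM. All HD-het libraries were above all control libraries, and all HD-homo libraries were below both. The log2 fold change was 1.97 (SE 0.26, edgeR adjusted p = 6.34e-05) in HD-het against control and -3.07 (SE 0.28, edgeR adjusted p = 4.64e-06) in HD-homo against control. Between the HD lines it was -5.04 (SE 0.30, edgeR adjusted p = 1.01e-07), a mean of 11.6 ± 4.13 CPM against 380 ± 70.5 CPM (SD, n = 3).

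Jag2, the second Jagged ligand, had the same order of lines at a far lower count. Its gene spans chr12:112907803-112929812. It had 0.955, 0.975 and 0.602 CPM for control, 1.86, 2.17 and 2.18 CPM for HD-het, and 0.195, 0.115 and 0.0887 CPM for HD-homo, the last from 7, 3 and 2 counts. No library of one line reached into the range of another. Its log2 fold change was 1.27 (SE 0.23, edgeR adjusted p = 6.99e-04) in HD-het against control, -2.57 (SE 0.35, edgeR adjusted p = 1.24e-04) in HD-homo against control and -3.84 (SE 0.32, edgeR adjusted p = 1.33e-06) in HD-homo against HD-het. Dll1, the Delta-like ligand of the set (chr17:15367354-15376932), was too low to test. Its counts were 0, 4 and 1 for control, 3, 7 and 6 for HD-het, and 8, 1 and 4 for HD-homo, and the lines overlapped except for HD-het above control.

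Notch1, the best-studied receptor of the family (chr2:26457902-26503822, minus strand), was highest in HD-het. Its level was 53.2, 63.3 and 30.1 CPM for control, 121, 139 and 148 CPM for HD-het, and 35.2, 15.6 and 19.6 CPM for HD-homo. Every HD-het library lay above every other library, whereas the first HD-homo library exceeded the third control library. Fitted log2 fold changes were 1.47 (SE 0.29, edgeR adjusted p = 0.00122) in HD-het against control, -1.05 (SE 0.30, edgeR adjusted p = 0.0138) in HD-homo against control and -2.52 (SE 0.31, edgeR adjusted p = 2.46e-05) in HD-homo against HD-het. The fall of Notch1 in HD-homo against control was lost without the second control library (log2 fold change -0.82, edgeR adjusted p = 0.0600) and without the third HD-homo library (-0.94, edgeR adjusted p = 0.0540), in a range of adjusted p from 0.00142 to 0.0660 over 18 alternatives.

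Notch2 had the most footprints of the receptors (chr3:98013538-98150367, plus strand). It lay at 192, 223 and 119 CPM for control, 282, 320 and 385 CPM for HD-het, and 163, 71.9 and 137 CPM for HD-homo. HD-het was again above both other lines, which overlapped. On the log2 scale the fold change was 0.88 (SE 0.28, edgeR adjusted p = 0.0179) in HD-het against control and -1.40 (SE 0.29, edgeR adjusted p = 0.00106) in HD-homo against HD-het, while the value of -0.52 (SE 0.28, edgeR adjusted p = 0.154) in HD-homo against control did not pass. The rise of Notch2 in HD-het was lost without the third control library (0.66, edgeR adjusted p = 0.0633) or the third HD-het library (0.74, edgeR adjusted p = 0.0686), in a range of 0.00221 to 0.222 over 18 alternatives. Without the third control library, Notch2 passed in HD-homo against control (-0.74, edgeR adjusted p = 0.0468, in a range of 0.0305 to 0.607).

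Notch3, a receptor known from vascular smooth muscle and pericytes, was a low-count gene in all 3 lines (chr17:32120820-32166896, minus strand). It lay at 1.76, 2.16 and 1.66 CPM for control, 7.14, 6.52 and 6.29 CPM for HD-het, and 1.72, 1.38 and 1.60 CPM for HD-homo. The HD-het libraries were all above the rest, and control and HD-homo overlapped. The fitted change (log2) was 1.82 (SE 0.16, edgeR adjusted p = 3.34e-06) in HD-het against control, -0.26 (SE 0.17, edgeR adjusted p = 0.258) in HD-homo against control and -2.08 (SE 0.16, edgeR adjusted p = 7.77e-07) in HD-homo against HD-het.

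The 3 receptors have long coding sequences, of 7596 bases in Notch1, 7422 in Notch2 and 6993 in Notch3, and long genes as a class moved with them. The 369 tested genes with over 6000 coding bases had a median log2 fold change of 0.28 in HD-het against control, -0.23 in HD-homo against control and -0.56 in HD-homo against HD-het, beside -0.15, 0.08 and 0.25 in the 3804 genes with at most 1000. With each library's trend in coding length taken out, an alternative added after the data were seen, Notch1 (0.99) and Notch3 (1.36) still passed in HD-het against control, and Notch2 did not (0.41, edgeR adjusted p = 0.222). Between the HD lines Notch1 (-1.71) and Notch3 (-1.32) still passed, and Notch2 did not (-0.60, edgeR adjusted p = 0.0746, in a range of 1.08e-06 to 0.0746 over 18 alternatives). The fall of Notch1 in HD-homo against control was lost as well (-0.72, edgeR adjusted p = 0.0660). Jag1, Jag2 and Hey1 passed in every comparison under this alternative.

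Rbpj, which binds DNA for all Notch receptors, moved against its partners. Its gene spans chr5:53555779-53657445 on the plus strand. It held 132, 129 and 147 CPM for control, 83.9, 81.5 and 83.5 CPM for HD-het, and 116, 146 and 128 CPM for HD-homo. The HD-het libraries were the lowest and lay close together (SD 1.30 CPM), and the other lines overlapped. As log2 fold changes, the fit gave -0.71 (SE 0.09, edgeR adjusted p = 6.71e-05) in HD-het against control, -0.06 (edgeR adjusted p = 0.607) in HD-homo against control and 0.65 (SE 0.09, edgeR adjusted p = 9.20e-05) in HD-homo against HD-het. The annotation holds the pseudogenes Rbpj-ps1, Rbpj-ps2 and Rbpj-ps3, and whether fragments they share with Rbpj were split between them is not given in the sources used here, so the level of Rbpj is uncertain to that extent.

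The target genes went separate ways. Hey1, a repressor that acts downstream of Notch in vessels and the nervous system (chr3:8663359-8667038), followed the ligands. Its level was 2.02, 1.67 and 1.47 CPM for control, 6.26, 5.23 and 6.01 CPM for HD-het, and 0.334, 0.306 and 0.577 CPM for HD-homo. The 3 lines did not overlap. The log2 fold change was 1.76 (SE 0.19, edgeR adjusted p = 1.57e-05) in HD-het against control, -2.11 (SE 0.26, edgeR adjusted p = 5.02e-05) in HD-homo against control and -3.87 (SE 0.24, edgeR adjusted p = 1.24e-07) in HD-homo against HD-het. The annotation places LOC115489673 over part of Hey1, and its share of the fragments was not examined here.

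Hes1, the repressor best known for oscillating in neural progenitors (chr16:30065357-30067796), showed no called difference. Its level was 17.5, 16.5 and 27.2 CPM for control, 17.6, 16.2 and 29.1 CPM for HD-het, and 5.34, 33.8 and 17.7 CPM for HD-homo. The HD-homo libraries alone spanned a 6.34-fold range and held both the lowest and the highest of the 9 values. Its log2 fold change was 0.04 (SE 0.49, edgeR adjusted p = 0.956) in HD-het against control, -0.11 (edgeR adjusted p = 0.872) in HD-homo against control and -0.15 (edgeR adjusted p = 0.804) in HD-homo against HD-het. The sign of the Hes1 values turned with the libraries left out. Heyl, the third target (chr4:123233556-123249870), was too low to test, with counts of 0, 2 and 0 for control, 2, 2 and 1 for HD-het, and 13, 3 and 4 for HD-homo. The mean of 0.218 CPM in HD-homo was 2.19-fold the mean of the 3-count floors of the control libraries and 1.93-fold that of the HD-het libraries. These ratios are no lower bounds, since counts above 0 occurred in both of those lines. The HD-homo mean rests mostly on the 13 counts of the first library, and the second, with 3 counts, was at the floor.

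**Figure D2:**
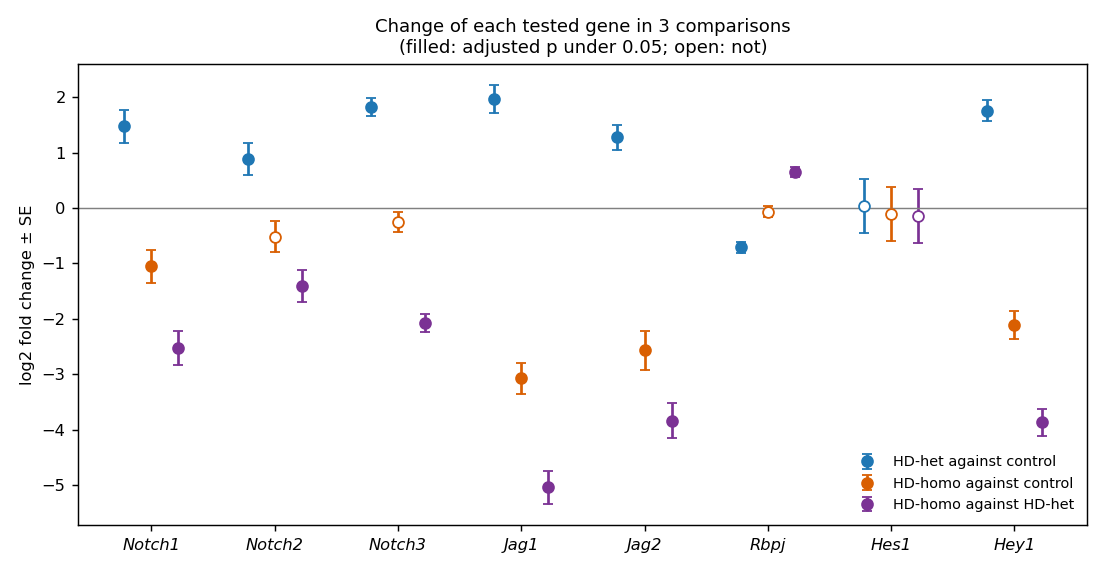
Log2 fold change with its SE for each of the 8 tested genes in HD-het against control (blue), HD-homo against control (orange) and HD-homo against HD-het (purple), from 3 libraries per line. Filled points passed an adjusted p of 0.05 in edgeR's quasi-likelihood test. Notch1, Notch2, Notch3, Jag1, Jag2 and Hey1 lie above 0 in HD-het and below 0 in HD-homo against HD-het, Rbpj lies on the other side, and the open points of Hes1 lie near 0 with the longest bars.

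In HD-het against control, 6 of the 8 tested members rose, 1 fell and 1 did not pass, where 31.0% of all tested genes rose and 29.1% fell. The median log2 fold change of the 8 was 1.37 beside 0.02 over all genes. A called change of at least 2-fold was found for 5 of the 8 and for 2636 of all 12678 tested genes. The libraries of the lines did not overlap for 7 of the 8, as for 71.2% of all tested genes, a property that most tested genes shared. In HD-homo against control none of the 8 rose and 4 fell (Notch1, Jag1, Jag2 and Hey1), where 23.3% of all genes rose and 22.3% fell. The median of the 8 was -0.79 beside 0.02. The lines did not overlap for 3 of these 8 genes, beside 55.5% of all genes. In HD-homo against HD-het 1 rose and 6 fell, where 34.6% rose and 32.8% fell, with a median of -2.30 beside 0.02 and no overlap for 7 of 8 beside 69.5% of all genes. The first pair of comparisons shares the control libraries and the last shares both HD lines with them, so the counts are not independent of each other. The members were chosen with earlier results of these data known, so their counts are no unbiased contrast with all genes. HD-het lay above both other lines, by both tests, in 6 of the 8 members and in 21.8% of all tested genes. A rise in HD-het together with a fall in HD-homo, each against control, was called for Notch1, Jag1, Jag2 and Hey1 and for 6.79% of all tested genes.

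The summed mural and mesenchymal markers were highest in HD-het, as given above, while the sums of control and HD-homo overlapped. Col1a1 (mean 16522 CPM in HD-het) and Acta2 (8388 CPM) were the largest parts of the HD-het sum. Singly the 9 markers differed. HD-het had the highest mean for 6 of them (Acta2, Col1a1, Cspg4, Myh11, Pdgfrb and Tagln), control for Des, and HD-homo for Col1a2 and Rgs5. Pdgfrb, for one, had means of 45.9, 354 and 56.3 CPM in control, HD-het and HD-homo, while Col1a2 had 24.0, 88.9 and 1027 CPM and Des 75.8, 70.7 and 47.6 CPM. The 6 endothelial markers summed to between 0.602 and 0.952 CPM in control libraries, 1.90 and 2.36 in HD-het and 0.459 and 1.06 in HD-homo, with Emcn at 0 throughout. The 6 progenitor markers above 1 CPM did not share 1 order of lines either. Nes and Meis2 had their highest mean in HD-het, Sox2 and Vim in control, and Dlx1 and Dlx2 in HD-homo. Nes, which other dividing cells also express, had means of 400, 1086 and 7.01 CPM in control, HD-het and HD-homo, Sox2 had 51.2, 33.9 and 2.26 CPM, and Dlx2 had 9.25, 2.11 and 19.9 CPM. The part of any of these in the Notch values was not tested.

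Divided by coding length, the levels of different genes could be set side by side. In control, Rbpj was the most abundant at 85.6 CPM per 1000 coding bases. Jag1 (26.6), Hes1 (24.0) and Notch2 (24.0) followed with overlapping ranges, then Notch1 at 6.43 and Hey1 at 1.91, and then Notch3 (0.266) and Jag2 (0.224), which overlapped. In HD-het, Jag1 came first at 104 CPM per 1000 coding bases, above Rbpj (52.2) and Notch2 (44.3), whose ranges overlapped. Hes1 (24.7) and Notch1 (17.9) overlapped next, and Hey1 (6.48), Notch3 (0.951) and Jag2 (0.550) followed in order without overlap. In HD-homo, Rbpj (81.8) was again first, followed by Hes1 (22.3) and Notch2 (16.7), which overlapped, and by Jag1 (3.17) and Notch1 (3.09), which did too. Hey1 (0.450) came next, then Notch3 (0.224) and Heyl (0.222), which overlapped, and last Dll1 (0.0664) and Jag2 (0.0352), which overlapped. Dll1 and Heyl were lowest in control and in HD-het and overlapped there.

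The makeup of the receptor pool differed between the lines as well. On the scale per coding length, the 4 receptors Notch1 to Notch4 summed to 30.7 ± 9.51 CPM per 1000 coding bases in control (SD, n = 3), while HD-het had 63.2 ± 8.70 and HD-homo 20.3 ± 7.60. Of that sum, Notch2 made up 78.2% in control cells, 70.0% in HD-het cells and 82.2% in HD-homo cells. The share of Notch1 lay between 19.5% and 21.5% in control libraries, between 27.0% and 29.3% in those of HD-het and between 11.9% and 17.1% in those of HD-homo, with no overlap between lines. The part of the trend in coding length in this share was not tested, and such shares were not computed for other genes. Notch3 made up 0.908%, 1.53% and 1.20% on average, and Notch4 0.120%, 0.0754% and 1.25%. The ligands Jag1, Jag2 and Dll1 summed to 26.8 ± 7.94 in control cells, to 105 ± 19.3 with 1 mutant allele and to 3.27 ± 1.15 with 2, and Jag1 made up 99.1%, 99.4% and 96.9% of it.

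**Figure D3:**
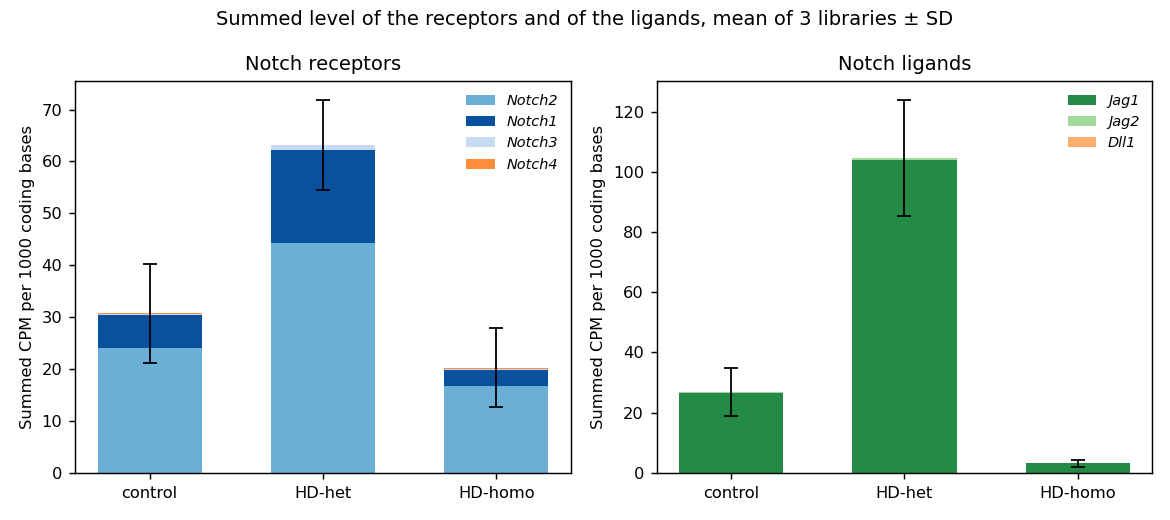
Summed level of the Notch receptors (left) and ligands (right) in each line, in CPM per 1000 coding bases, as stacked bars of the mean level of each gene over 3 libraries, with the SD of the sum. The receptor sum is 63.2 in HD-het against 30.7 in control and 20.3 in HD-homo, and nearly all of the ligand sum is Jag1, at 105 in HD-het and 3.27 in HD-homo.

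Within a line, some members departed from the mean together in some libraries. In the third control library Notch1, Notch2 and Jag1 lay at 61.5%, 66.8% and 66.9% of their control means, and in the second HD-homo library at 66.4%, 57.9% and 67.0% of their HD-homo means. Each was the lowest of its line there. Hes1 stood at 134% and 178% of its line means in the same libraries, its highest values in those lines, and Rbpj stood at 108% and 112%. In the first HD-homo library Hes1 was at 28.2% of its mean, while Notch1 stood at 150%, Notch2 at 132% and Jag1 at 95.3%. In the third HD-homo library Jag1 stood at 138%, Notch2 at 111% and Notch1 at 83.6%, so Jag1 did not follow the receptors throughout. In HD-het the order differed, since the third library was highest for Hes1 (139%), Notch1 (109%), Notch2 (117%) and Jag1 (121%) alike. These are 3 libraries per line, and the departures are given as a description. With the third control and second HD-homo libraries both left out, a choice made after seeing the data, no call of the 8 members was lost, and Notch2 in HD-homo against control was gained (-0.47, edgeR adjusted p = 0.0305, in a range of 0.0305 to 0.607).

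**Figure D4:**
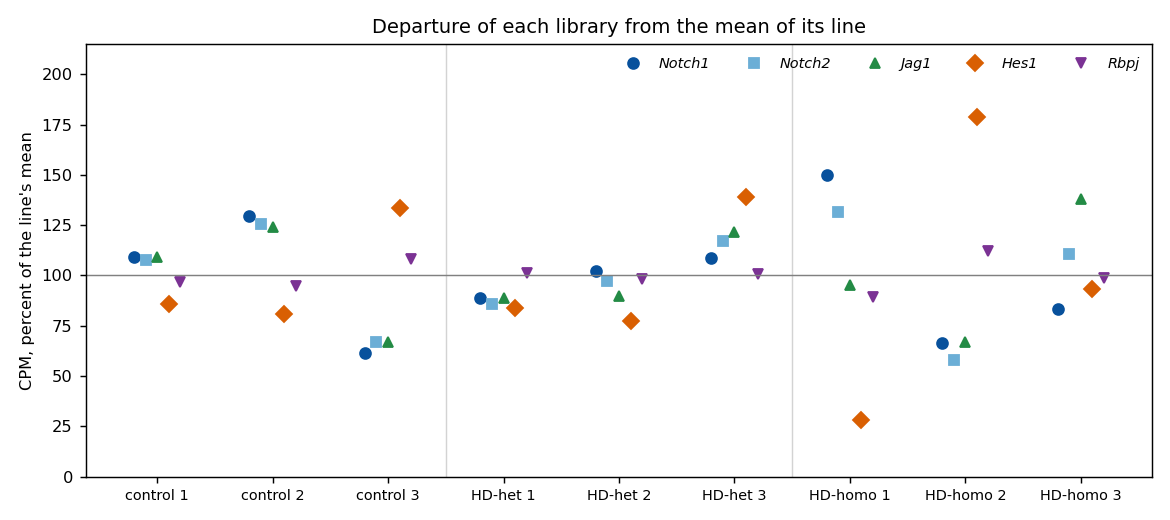
Level of Notch1, Notch2, Jag1, Hes1 and Rbpj in each of the 9 libraries as a percent of the mean CPM of its line (linear axis from 0, with the line at 100 marking the mean). In control 3 and HD-homo 2 the receptors and Jag1 lie between 57.9% and 67.0% and Hes1 at 134% and 178%, whereas in HD-het 3 all of these lie above 100.

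A wider list of 61 pathway genes held cofactors, proteases, ligases and further ligands, and 53 of them were tested. The list, too, was chosen with earlier results known, so its shares are no unbiased contrast with all genes. In HD-het against control 22 of the 53 rose (41.5%, beside 31.0% of all tested genes) and 7 fell (13.2% beside 29.1%), with a median log2 fold change of 0.30. In HD-homo against control 8 rose (15.1% beside 23.3%) and 13 fell (24.5% beside 22.3%), with a median of -0.11. Between the HD lines 7 rose (13.2% beside 34.6%) and 25 fell (47.2% beside 32.8%), with a median of -0.22. With the trend in coding length taken out, the split was 15 higher and 12 lower in HD-het against control, 10 and 13 in HD-homo against control, and 13 and 22 between the HD lines, so the first and last were less one-sided. Dll3, Dll4, Mfng, Dtx1, Hes3, Hes5, Hes7 and Helt were too low to test, and the ligand genes Dll3 and Dll4 had at most 3 counts and 1 count in a library.

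The next genes code for proteases that process and cut the receptors and for the other subunits of gamma-secretase. Of 10 tested, 6 rose and 1 fell in HD-het against control, none rose and 5 fell in HD-homo against control, and none rose and 8 fell in HD-homo against HD-het. Over all tested genes 31.0% rose and 29.1% fell, 23.3% rose and 22.3% fell, and 34.6% rose and 32.8% fell in the same comparisons. Ncstn, the nicastrin subunit of gamma-secretase, had means of 101 ± 24.7, 243 ± 23.4 and 76.1 ± 14.6 CPM in control, HD-het and HD-homo (SD, n = 3), a log2 fold change of 1.26 (SE 0.18, edgeR adjusted p = 1.22e-04) in HD-het against control and -1.67 (SE 0.18, edgeR adjusted p = 1.05e-05) between the HD lines. Psenen, a small subunit of the same complex, fell in HD-het by 0.62 on the log2 scale (edgeR adjusted p = 0.00464).

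Among the other receptors and ligands, Dlk1 and Dner rose most in HD-het. Dlk1, a noncanonical ligand, had counts of 0, 2 and 0 in control and 46, 58 and 37 in HD-het libraries. The HD-het mean of 1.70 CPM was 17.0-fold the mean 3-count floor of the control libraries, and HD-homo was lower than HD-het (-3.22, edgeR adjusted p = 2.21e-05). With few counts (mean 0.185 CPM), HD-homo was still higher than control (2.86, SE 0.82, edgeR adjusted p = 0.0148). Dner, another noncanonical ligand of neural cells, had a mean of 0.141 CPM in control and 5.49 CPM in HD-het (log2 fold change 5.28, SE 0.32, edgeR adjusted p = 1.43e-06). It had no count in any HD-homo library, so HD-het was at least 49.7-fold higher than the mean floor there. Notch4, the fourth receptor, moved unlike Notch1, Notch2 and Notch3, with means of 0.206, 0.281 and 1.42 CPM in control, HD-het and HD-homo, and rose in HD-homo against control (2.73, SE 0.29, edgeR adjusted p = 1.66e-05) and against HD-het (2.30, edgeR adjusted p = 2.59e-05). Dlk2 rose in HD-homo against HD-het as well (1.11, SE 0.15, edgeR adjusted p = 4.39e-05).

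Nrarp, a Notch target that acts back on the pathway as an inhibitor, was highest in control. It had 70, 129 and 70 counts for control, 8, 28 and 9 for HD-het, and 1, 0 and 0 for HD-homo. The log2 fold change was -2.41 (SE 0.30, edgeR adjusted p = 4.07e-05) in HD-het against control, and the control mean was 25.3-fold the mean 3-count floor of the HD-homo libraries. Hey2, a relative of Hey1, rose in HD-homo against control (1.40, SE 0.33, edgeR adjusted p = 0.00484), in contrast to the fall of Hey1 in the same comparison. Of the 4 tested genes in this group of further HES and HEY genes and targets, none rose and 1 fell in HD-het (31.0% and 29.1% of all tested genes), and 1 rose and 2 fell in HD-homo (23.3% and 22.3% of all), both against control. A count over 4 genes cannot be set apart from those shares.

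The coactivators and corepressors act with RBPJ on DNA. Of 8 tested coactivators, 4 rose and 1 fell in HD-het against control (31.0% and 29.1% of all tested genes), and none rose and 1 fell in HD-homo against control (23.3% and 22.3% of all). Maml2, a Mastermind coactivator, rose in HD-het (1.27, SE 0.19, edgeR adjusted p = 1.81e-04), and Kat2a, an acetyltransferase, fell (-0.80, SE 0.09, edgeR adjusted p = 1.50e-05). Maml3 fell in HD-homo against control (-1.78, SE 0.27, edgeR adjusted p = 2.26e-04) and against HD-het (-2.38, SE 0.26, edgeR adjusted p = 1.00e-05). Of 11 corepressors, 3 rose and 1 fell in HD-het and 1 rose and 1 fell in HD-homo, both against control, so that the rises in HD-het were near the 31.0% of all tested genes and the other counts below their shares.

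Of 12 tested ubiquitin ligases and endocytic regulators, 5 rose and 1 fell in HD-het and 3 rose and 2 fell in HD-homo, both against control. The counts in HD-homo were near the 23.3% and 22.3% of all tested genes, and those in HD-het stood beside 31.0% and 29.1%. Neurl1a, a ligase that acts on Notch ligands, had 1 count in each control library and 37, 38 and 24 counts in HD-homo libraries. Its HD-homo mean was 11.9-fold the mean 3-count floor of the control libraries, and Neurl1a also rose in HD-homo against HD-het (3.24, edgeR adjusted p = 4.83e-05). Dtx3l rose in HD-homo against control (1.82, SE 0.21, edgeR adjusted p = 2.92e-05) and against HD-het (0.91, SE 0.20, edgeR adjusted p = 0.00156). Dtx4 fell in HD-het (-0.66, edgeR adjusted p = 0.00235) and in HD-homo (-1.69, SE 0.16, edgeR adjusted p = 5.53e-06), both against control. Among 4 tested genes that add sugars to the receptors, Lfng, a fringe glycosyltransferase that sets which ligands a receptor answers to, fell in HD-homo against control (-1.01, SE 0.27, edgeR adjusted p = 0.0106).

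**Figure D5:**
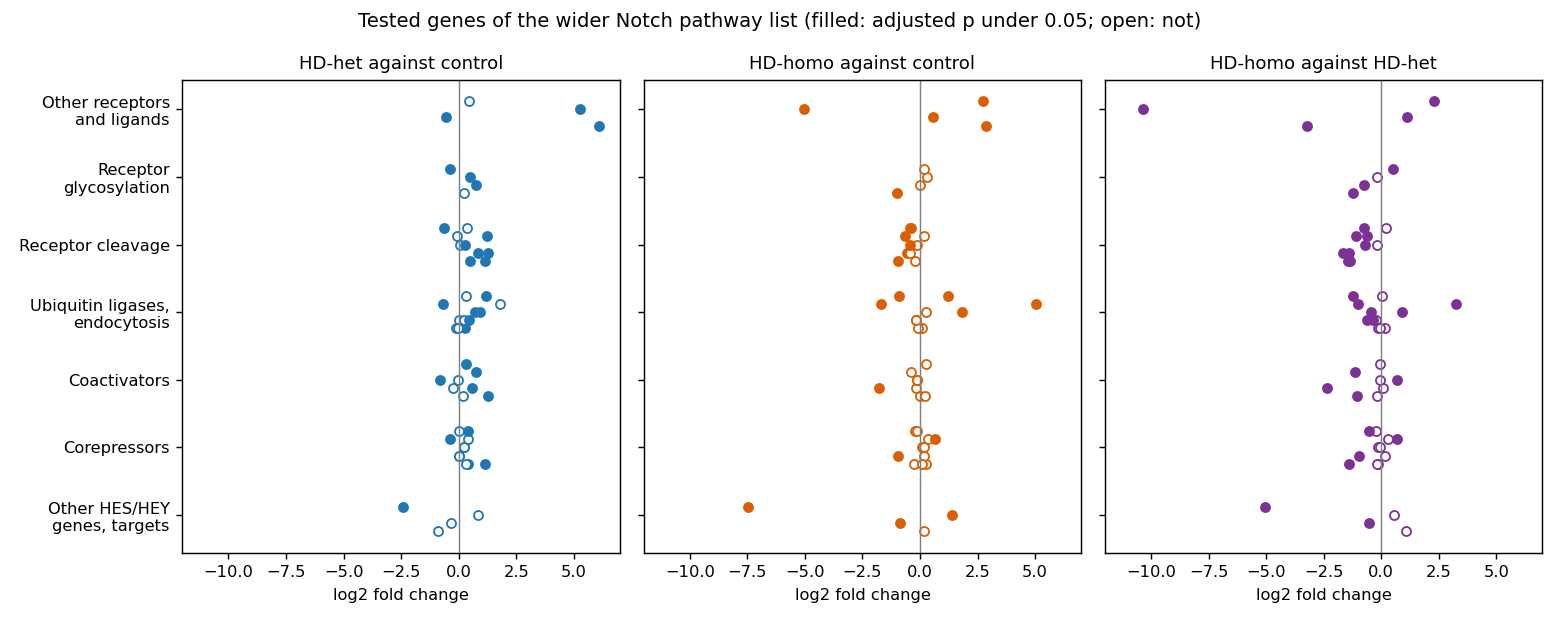
Log2 fold change of the 53 tested genes of the wider Notch pathway list, by functional group (vertical position within a group only spreads the points), in 3 comparisons of 3 libraries per line. Filled points passed an adjusted p of 0.05, and the fitted values of genes without counts in a line depend on the prior count. Receptor cleavage genes lie mostly right of 0 in HD-het against control and left of 0 in HD-homo against HD-het, where 8 of 10 fell.

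The genes whose levels followed each member most closely over the 9 libraries were ranked by the root mean square difference of centered log2(CPM + 0.5), where 0 would be the same profile. Jag1 lay closest to Spp1 (0.253), Mmp10 (0.293) and Bmper (0.304). Notch1 lay closest to Mmp14 (0.184), Pxdn (0.219) and Lrp1 (0.250), and Notch2 to Egfr (0.119), Fkbp10 (0.139) and Loxl3 (0.165). For Notch3 the nearest were Hs6st3 (0.122), Sidt2 (0.125) and Adgrl1 (0.136). For Jag2 they were Cacna2d1 (0.0765), Suco (0.107) and Pon2 (0.112), and for Hey1 St3gal5 (0.127), Cpeb1 (0.139) and Ckm (0.143). The low-count members vary less on this scale because of the added 0.5, so their distances are not set against those of Jag1. Hes1 and Rbpj changed too little for the naming rule, and their neighbors were looked up after their values were seen. Hes1 had no close neighbor, with Ccdc96 (0.378), Arid5b (0.379) and Id1 (0.439) the nearest. Id1, a BMP target, stood at 293 CPM in the second HD-homo library against 116 and 138 CPM in the others of that line, so it shared the peak of Hes1 there. The nearest profiles to Rbpj were Cpsf7 (0.0537), Ddx50 (0.0566) and Pacrgl (0.0584), all lowest in HD-het.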

How the data were processed

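Ribosome footprints of 3 mouse striatal lines (control, HD-het, HD-homo, 3 libraries each) were analysed. The authors deposited raw counts of fragments per gene symbol, unnormalized and not pooled. The submitters' processing notes name cutadapt, Bowtie 1.0.1 and build mm10 (GRCm38), and the counting program, annotation and use of strand are not given in the sources used here. Counts were fitted with edgeR 4.0.16 (R 4.3.3, limma 3.58.1): TMM factors, filterByExpr, 9 libraries in 1 fit with line as the only term, the 2-sided quasi-likelihood F test, and Benjamini-Hochberg adjustment over 12678 genes with 0.05 as threshold. This code was tested on simulated counts for HD-het against control. Among 12498 genes it recovered 81 of 104 changes of 1 and 93 of 94 changes of 2 on the log2 scale. Of its calls 7.94% were false, more than the threshold of 0.05 aims at. All other genes were simulated without change and each library was drawn independently. In the real libraries far more genes were called and some departed together, so these rates need not hold there. Coding length was the longest coding sequence per gene in RefSeq GRCm38.p6, used in place of protein length. The members and lists were chosen with earlier results of these data known. All 10 members were named, plus, per comparison, up to 4 pathway genes higher and 4 lower with the largest called change and at least 1 CPM in the higher line. Profile neighbors were taken for members that changed at least 2-fold. Alternatives were other scalings, filters, DESeq2 1.42.0, a replicate block, each library left out, and 2 added later. Overlapping noncoding genes at Notch1, Notch2, Notch3 and Jag2 had 0 counts.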

Additional observations from a re-analysis of the deposited data

Results flagged for a closer look

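In 7 members the difference of each HD line from control was itself different, as tested by HD-homo against HD-het in the same fit (edgeR's quasi-likelihood test, 3 libraries per line). Between the HD lines the log2 fold change was -5.04 for Jag1, -3.87 for Hey1, -3.84 for Jag2, -2.52 for Notch1, -2.08 for Notch3 and -1.40 for Notch2, and it was 0.65 for Rbpj. Every library of HD-homo lay on the same side of every library of HD-het for these 7 genes. HD-homo and HD-het did not overlap for 69.5% of all tested genes either. The 7 are listed because they passed this comparison, in which 34.6% of all tested genes rose and 32.8% fell.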

How the results depend on the processing

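Over 24 fold changes of the 8 tested members, 405 of 426 alternative values kept their direction and their side of the threshold. Calls were lost in 7 values, all of Notch1 in HD-homo against control or of Notch2, and gained in 2 of Notch2, as given above, and 12 changed sign, none of them past the threshold on either side. Notch3 in HD-homo against control turned to 0.036 with coding-length offsets. Hes1 in HD-het against control turned to -0.030 with total counts, -4.06e-05 without a filter and -0.017 with coding-length offsets. With 1 library left out it ran from -0.29 to 0.29, Hes1 in HD-homo against control from -0.86 to 0.35, Hes1 between the HD lines from -0.89 to 0.31, and Rbpj in HD-homo against control from -0.15 to 0.010. The cause was not tested. With at least 10 counts in every library, 2 of the members passed in HD-homo against control in place of 4, since Jag2 and Hey1 left the test. Without a filter all 10 members were tested, and 1 rose and 4 fell in HD-homo against control. Between the HD lines 2 then rose and 6 fell. The added rise in each was that of a low-count member, Dll1 or Heyl. Asking for a 2-fold change left 9 of the 53 tested pathway genes in HD-het and 11 in HD-homo, both against control. It left 18 between the HD lines, and without it the counts were 29, 21 and 32. Called changes of this size were found in 2636, 2182 and 3460 of all 12678 tested genes, in the same order. The level of Rbpj per 1000 coding bases in HD-het was 50.7 with total counts. Same-numbered libraries did not deviate together (correlations from -0.356 to 0.175). Differently numbered libraries ranged from -0.275 (HD-homo 1 with control 3) to 0.376 (HD-homo 1 with control 2), with HD-homo 2 and control 3 at 0.312. A block by replicate number does not take these out. A fit with that block changed 0 of the 24 calls, with 7, 4 and 7 members and 30, 21 and 33 pathway genes called. Counts under 10 limit Jag2 in HD-homo, Hey1 in the second HD-homo library (8 counts) and all of Dll1. They also limit Heyl in every library but the first of HD-homo (13 counts).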
